A study of Mus musculus with 18 samples.

Results

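The Nrf2 pathway and the cystine and glutathione genes under its control were followed through 10 genes in mouse bone-marrow-derived macrophages. They were chosen by name from textbook knowledge of the pathway, with earlier results of these data known. The genes are Nfe2l2, Keap1, Slc7a11, Gclc, Gclm, Gsr, Nqo1, Txnrd1, Srxn1 and Prdx1. All 10 were found among the 22598 genes of the deposited tables. Such macrophages are matured in culture from bone marrow precursors, and these were labelled wild type, with no strain, age or sex stated in the labels. RNA was sequenced from 18 libraries in 6 groups of 3 after 18 h: an untreated control, interferon-gamma (IFNg), and IFNg with tumour necrosis factor (TNF, also written TNFa in the labels), with lipopolysaccharide (LPS, a component of the bacterial outer membrane), with interleukin-1 beta (IL1b) or with hypoxia. The control is the only group without IFNg, and no addition was given alone, so the action of an addition cannot be told apart from its combination with IFNg. The labels state neither doses nor the oxygen level. Nor do they say whether the 3 libraries of each group are different mice or cultures, and the p-values therefore measure only how these samples spread, which may be technical.

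Nrf2, encoded by Nfe2l2, is a transcription factor that Keap1 holds in the cytoplasm and delivers for degradation until electrophiles or oxidants modify Keap1. Stabilized Nrf2 pairs with small Maf proteins at antioxidant response elements and raises genes for glutathione synthesis, for the thioredoxin system and for detoxification. Its activity is set mostly at the level of the protein, so the mRNA of Nfe2l2 is a measure of supply and not of activity. In macrophages the pathway is known for following inflammatory activation, when cells make large amounts of oxidants and nitric oxide.

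The libraries held 12270565 to 20952799 counts each. Levels are given as CPM, the count scaled to a common total over tested genes after TMM scaling, and 3 counts in 1 library correspond to 0.151 to 0.255 CPM. Irf1, an IFNg target, had a mean of 81.6 CPM in the control and 1089 CPM with IFNg. Egln3, a hypoxia target, had 0.743 CPM with IFNg and 129 CPM with added hypoxia. Vegfa went from 12.7 to 60.4 CPM and Slc2a1 from 71.4 to 811 CPM between these groups, while Car9 stood at 4.22 and 4.41 CPM. These rises were not particular to hypoxia, since Egln3, Vegfa and Slc2a1 had 37.5, 213 and 1142 CPM with TNF. All 8 macrophage markers were detected in every group, with summed levels of 13285 to 26874 CPM, while the 3 T cell and 3 erythroid markers were at 0 counts in all libraries. The 8 neutrophil and granulocyte precursor markers summed to 81.2 to 129 CPM in the control, 104 to 123 CPM with IFNg, 82.9 to 95.8 CPM with IL1b, 62.9 to 88.9 CPM with hypoxia, 22.3 to 35.8 CPM with LPS and 8.17 to 14.4 CPM with TNF. These sums were lowest in the groups in which most of the 10 genes were highest, and their part in the results was not tested. The 4 dendritic cell markers summed to 3.08 to 14.1 CPM outside the TNF group and to 32.7 to 48.0 CPM in it, mostly from Ccr7 at 37.5 CPM, and their part was not tested either. The 5 fibroblast markers summed to 10.1 to 14.6 CPM in the control, where Dcn was at 0, to 4.69 to 6.90 CPM with IFNg and to 2.25 to 10.7 CPM in the other groups (Pdgfrb was at 0 with hypoxia), and their part in the lower levels with IFNg was not tested. In bulk RNA, fewer cells of a type and less RNA per cell cannot be told apart. The third LPS library was the lowest of its group for 8 of the 10 genes, the exceptions being Nfe2l2 and Gclc, and none of the members' calls of LPS against IFNg, the control or TNF was lost without it.

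Promoter windows show what sequence the members have near their starts. RefSeq windows of build GRCm38.p6, from 250 bases before to 50 bases after an annotated start, were found for 8 of the 10 genes, all but Gclc and Gsr, and Txnrd1 had 3 starts. The 4 windows printed belong to genes with large rises with TNF and LPS. Capitals mark matches, on either strand, to the antioxidant response element core TGACNNNGC, to a second form TGAGNNNGC that was added after the windows had been seen, to the AP-1 site (TGACTCA or its reverse complement TGAGTCA) and to the amino acid response letters TGATGNAA, read by ATF4. The AP-1 letters can lie inside either element form.
Slc7a11, chr3:50443564-50443863, minus strand: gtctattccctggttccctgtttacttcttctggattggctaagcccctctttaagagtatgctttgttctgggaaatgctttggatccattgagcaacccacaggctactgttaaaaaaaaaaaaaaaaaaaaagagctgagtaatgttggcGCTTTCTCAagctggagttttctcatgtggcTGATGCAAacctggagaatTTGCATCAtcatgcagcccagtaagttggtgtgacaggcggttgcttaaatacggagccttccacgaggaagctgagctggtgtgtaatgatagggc
Gclm, chr3:122245307-122245606, plus strand: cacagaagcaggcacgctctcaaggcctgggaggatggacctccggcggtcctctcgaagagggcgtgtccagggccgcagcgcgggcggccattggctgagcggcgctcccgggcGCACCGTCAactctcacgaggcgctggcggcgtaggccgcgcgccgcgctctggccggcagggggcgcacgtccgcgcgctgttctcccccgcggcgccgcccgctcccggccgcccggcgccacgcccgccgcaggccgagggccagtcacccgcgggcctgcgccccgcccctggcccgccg
Srxn1, chr2:152105274-152105573, plus strand: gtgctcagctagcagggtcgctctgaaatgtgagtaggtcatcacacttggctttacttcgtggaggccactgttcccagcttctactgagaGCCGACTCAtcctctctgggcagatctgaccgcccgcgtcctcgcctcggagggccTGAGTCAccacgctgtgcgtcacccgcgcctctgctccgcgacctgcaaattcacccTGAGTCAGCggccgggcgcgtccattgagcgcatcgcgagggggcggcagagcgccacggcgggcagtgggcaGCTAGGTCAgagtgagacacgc
Prdx1, chr4:116685349-116685648, plus strand: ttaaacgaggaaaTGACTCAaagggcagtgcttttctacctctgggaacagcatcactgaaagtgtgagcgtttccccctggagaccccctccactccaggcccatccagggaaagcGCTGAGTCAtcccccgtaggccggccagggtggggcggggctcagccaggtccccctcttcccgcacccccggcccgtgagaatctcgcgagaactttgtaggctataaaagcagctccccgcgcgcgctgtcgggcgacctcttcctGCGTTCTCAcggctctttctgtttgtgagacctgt

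Counted from the start site, the Slc7a11 window held the amino acid response letters at 2 places, -66 to -59 and -47 to -40, beside 1 match to the second element form at -97 to -89. In Prdx1 the element core at -133 to -125 overlapped an AP-1 site at -131 to -125, and another AP-1 site lay at -237 to -231. Srxn1 held the core at 29 to 37, the second form at -158 to -150 and -45 to -37, and AP-1 sites at -102 to -96 and -45 to -39. The core was also found in Gclm at -134 to -126, in Nfe2l2 at -240 to -232 and in the second Txnrd1 window at -92 to -84. In all, 5 of the 8 genes held the core, Txnrd1 only in the second of its 3 windows. With the second form, added after the windows had been seen, 6 held either form, Slc7a11 through the second form alone. The windows of Keap1 and Nqo1 held neither. Sequence outside the windows was not searched, so elements farther from a start would be missed. The share of all windows with either form was not computed, and the shares that follow are per window and not per gene. Among 32851 promoter windows of the same length, 12.4% held the core, 17.6% the second form, 5.20% an AP-1 site and 3.97% the amino acid response letters. The map of these matches along the windows shows where they lie.

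**Figure D1:**
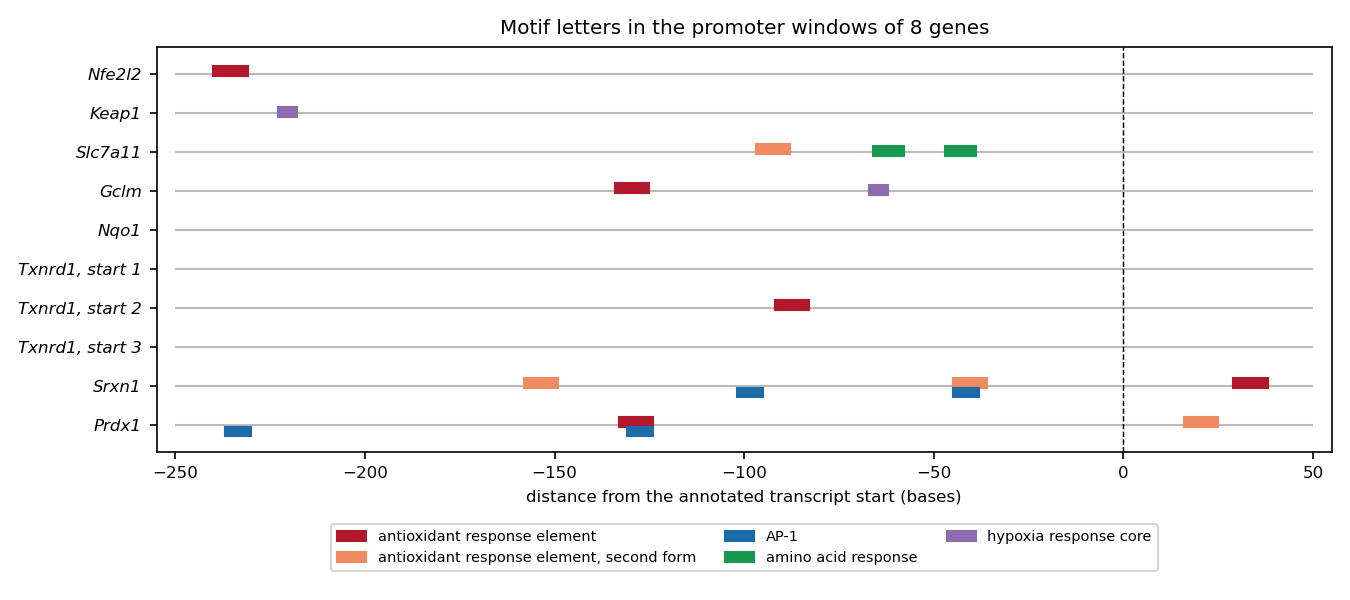
Position of motif letters in the 10 promoter windows of 8 genes, as distance in bases from the annotated transcript start (dashed line). Slc7a11 is the 1 gene with the amino acid response letters, and Srxn1 and Prdx1 are the 2 with AP-1 sites.

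Across the comparisons most of the 10 genes moved in the same direction, lower with IFNg and higher when TNF or LPS was added to it. The sizes differed widely. With LPS over IFNg, Nfe2l2 rose 1.33-fold and Prdx1 13.5-fold, and Keap1 was not called. With IFNg, 9 of the 10 were lower than in the control and 0 higher (edgeR's quasi-likelihood test, Benjamini-Hochberg adjusted p under 0.05 over 11563 genes, the rule for every call here), where 10% of all tested genes were called lower and 13.5% higher. Slc7a11 is 1 of these 9, on 27 counts in the control libraries against 1 with IFNg. Added TNF raised 9 of 10 over IFNg, where 22.1% of all genes were called higher and 22.6% lower, and added LPS raised 9 of 10, where 10.2% were called higher and 10.1% lower. Added IL1b raised 1, Prdx1, where 0.268% of all genes were called higher and 0.0346% lower. Added hypoxia raised 2 and lowered 2, where 13.5% of all genes were called higher and 11.8% lower. Of the 2 raised, Slc7a11 had 13 counts against 1 with IFNg. These 4 comparisons share the IFNg libraries, which were themselves low for these genes.

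The median log2 difference of the 10 genes was -0.79 for IFNg against the control, 3.66 for added TNF, 2.60 for added LPS, 0.58 for added IL1b and 0.11 for added hypoxia. Over all tested genes the medians were -0.015, -0.049, -0.0036, -0.00057 and -0.011. Set against the control in place of IFNg alone, 9 of the 10 were higher with TNF (25.7% of all genes were), 7 were higher and 1 lower with LPS (19.5% and 17.3% of all genes), and 1 was higher and 6 lower with hypoxia (21.0% and 19.1%). With IL1b, 1 was higher and 3 lower than in the control (14.9% and 11.8%). All 10 genes passed the filter on low counts, Slc7a11 only through its LPS and TNF libraries. Its calls between the other groups were therefore made on counts that would not have passed by themselves.

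**Figure D2:**
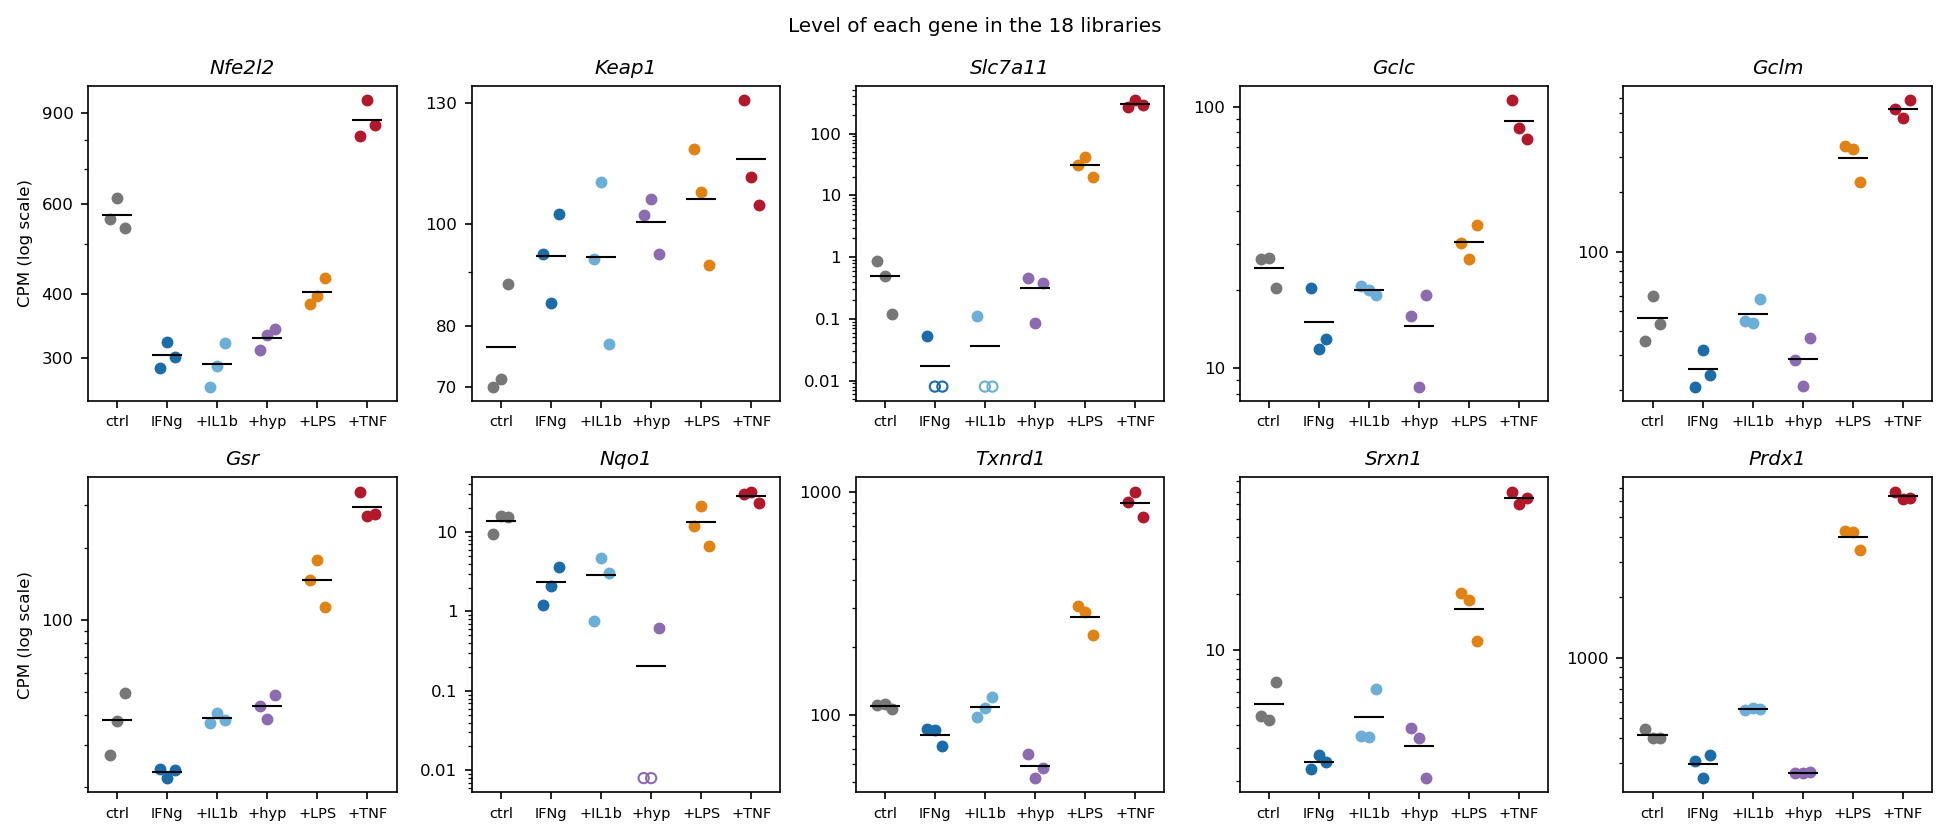
Level in CPM (log axis) of the 10 genes in each of the 18 libraries, with a bar at each group's mean of 3 libraries and open circles for libraries with 0 counts, drawn at the foot of the panel. The TNF group has the highest mean in every panel, from 28.4 CPM for Nqo1 to 6358 CPM for Prdx1.

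Nfe2l2 itself (chr2:75675513-75704641, minus strand), the gene for Nrf2, fell with IFNg and rose above its control level only when TNF was added. Its levels were 559.8, 616 and 538 CPM in the 3 control libraries and 287, 323 and 302 CPM with IFNg. They were 383, 396 and 430.5 CPM with LPS and 814, 954 and 853 CPM with TNF. The 4 groups do not overlap. Against the control, TNF was higher by a log2 difference of 0.61 ± 0.10 (adjusted p = 1.75e-05). That call was lost when libraries were scaled to the totals implied by the deposited RPKM values (0.14, adjusted p = 0.263). With IFNg the gene was 1.88-fold lower than in the control (log2 difference -0.91 ± 0.10, SE, adjusted p = 1.13e-07), with TNF 2.87-fold higher than with IFNg (1.52 ± 0.11, adjusted p = 3.99e-12) and with LPS 1.33-fold higher (0.41 ± 0.10, adjusted p = 0.0052). LPS thus left it below the control (-0.50 ± 0.10, adjusted p = 0.000332), while Slc7a11, Gclm, Gsr, Txnrd1, Srxn1 and Prdx1 were called above it. Levels of 264 to 321.5 CPM with IL1b and of 311 to 342 CPM with hypoxia overlapped those with IFNg, and neither difference was called.

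Keap1 (chr9:21229730-21239361, minus strand), the sensor that marks Nrf2 for degradation, varied least of the 10. Its libraries ran from 70.1 to 87.7 CPM in the control, 84.1 to 102 CPM with IFNg and 104 to 131 CPM with TNF, and no 2 groups next to each other in the order of levels differed beyond their spread. It was the 1 member not called with IFNg, TNF or LPS. Against the control it was called higher with TNF (0.59 ± 0.14, adjusted p = 0.001), with LPS (0.47 ± 0.14, adjusted p = 0.0109) and with hypoxia (0.39 ± 0.14, adjusted p = 0.029). Scaling the libraries to the totals implied by the deposited RPKM values ended all 3 calls, with log2 differences of 0.13, 0.24 and 0.00023. That scaling moved the median of all genes from -0.035 to -0.51 for TNF, from -0.014 to -0.24 for LPS and from -0.038 to -0.44 for hypoxia, each against the control. It also took Nfe2l2 with TNF from 0.61 to 0.14 above the control (adjusted p = 0.263), which ended that call too. Without control library 1 the Keap1 call with LPS was lost (adjusted p = 0.0511), and the call with hypoxia was lost without control library 1 or 2 or hypoxia library 1 or 2 (adjusted p = 0.0716 to 0.106). Of the 50-base stretches of Keap1's coding sequence, 19.8% occur on either strand in transcripts of the annotated gene Gm16754, so its counts are uncertain.

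Per length, Nfe2l2 mRNA was 6.42 to 9.03 times that of Keap1 in the control libraries and 3.09 to 4.02 times with IFNg. The ratio was 2.77 to 4.37 with IL1b, 3.19 to 3.82 with hypoxia, 3.40 to 4.92 with LPS and 6.50 to 9.01 with TNF. Control and TNF libraries lay above all others. The difference between IFNg and control and that between TNF and IFNg each gave an exact two-sided permutation p of 0.1 over 3 against 3 libraries, which is the smallest that this design allows (4 ratio comparisons were made, with the 2 on Gclc and Gclm given further on).

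**Figure D3:**
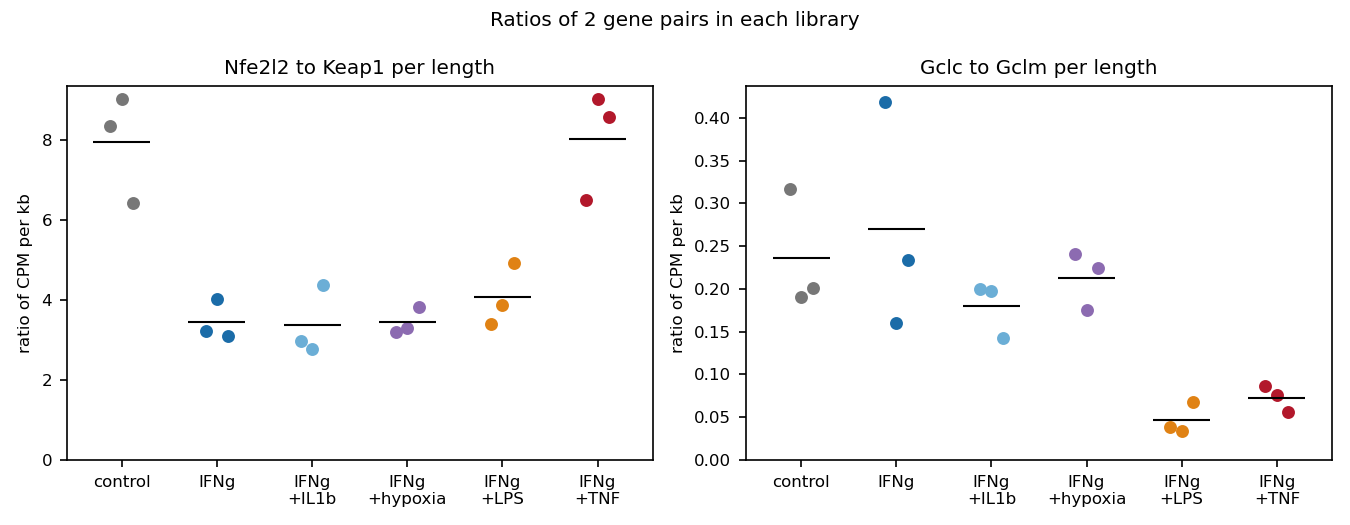
Ratio of CPM per kb of coding width in each of the 18 libraries, with a bar at the mean of 3, for Nfe2l2 to Keap1 (left) and Gclc to Gclm (right). Nfe2l2 to Keap1 is highest in control and TNF libraries, and Gclc to Gclm is lowest in LPS and TNF libraries, at 0.0340 to 0.0867.

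Slc7a11 (chr3:49892526-50443614, minus strand) encodes xCT, the subunit of the cystine-glutamate antiporter that carries the substrate and thereby supplies cysteine for glutathione. It was close to undetected until LPS or TNF was added. The control libraries held 17, 8 and 2 counts, the IFNg libraries 1, 0 and 0 and the IL1b libraries 2, 0 and 0, and the hypoxia libraries 7, 1 and 5. With LPS it stood at 31.3, 41.7 and 19.9 CPM, and with TNF at 274, 345 and 292 CPM. Both groups lay above every other library, and LPS lay below TNF (log2 difference -3.29 ± 0.27, adjusted p = 5.04e-09).

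Because IFNg libraries held 1 count of Slc7a11 in all, ratios to them are given with their 95% counting intervals. TNF was 15352 times higher (2755 to 606409), LPS 1617 times (290 to 63924), hypoxia 16.6 times (2.49 to 705) and the control 26.0 times (4.29 to 1066). These intervals cover counting error only. Against the control, whose libraries held 27 counts, TNF was higher by a log2 difference of 9.20 ± 0.39 (adjusted p = 6.34e-15) and LPS by 5.91 ± 0.37 (adjusted p = 1.55e-11). Without control library 1, which held most of those counts, the differences were 9.92 and 6.64. The lower level with IFNg than in the control was called (adjusted p = 0.00554), from 27 counts against 1. The higher level with hypoxia was called as well (adjusted p = 0.0386), from 13 counts against 1, and was lost without any 1 of IFNg libraries 1, 2 and 3 or hypoxia libraries 1 and 3 (adjusted p = 0.0638 to 0.155) and with no filter on low counts (adjusted p = 0.0724). With IL1b both groups were at or under 3 counts, and no ratio is given.

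Slc3a2, the heavy chain that pairs with xCT, was expressed throughout, with means of 189 ± 4.99 CPM in the control, 357 ± 25.2 CPM with IFNg, 754 ± 46.4 CPM with LPS and 1389 ± 140 CPM with TNF (SD, n = 3). Unlike Slc7a11 it was higher with IFNg than in the control (0.92 ± 0.10), and it rose further with TNF (1.96 ± 0.11), LPS (1.08 ± 0.10) and hypoxia (0.59 ± 0.10), with adjusted p-values of 8.3e-05 or smaller. Of 12 genes tested in the list of cystine, glutamate and cysteine supply, Slc3a2 included, 2 were higher and 3 lower with TNF (2 and 5 with RPKM totals), where 22.1% of all genes were higher and 22.6% lower. With LPS 1 was higher and 1 lower, where 10.2% and 10.1% of all genes were, and with hypoxia 1 and 3, where 13.5% and 11.8% were. The counts with TNF and LPS are near those shares, and the list's median log2 difference was -0.34 with TNF. Slc1a5, a glutamine transporter, fell from 30.9 ± 3.63 CPM with IFNg to 8.51 ± 1.61 CPM with TNF, to 19.1 ± 1.47 CPM with LPS and to 13.8 ± 2.16 CPM with hypoxia (SD, n = 3). Mat2a, which makes S-adenosylmethionine from methionine, fell with TNF (-1.09 ± 0.18, adjusted p = 9.5e-06) and with hypoxia (-1.34 ± 0.18, adjusted p = 2e-06).

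Gclc (chr9:77754535-77794485, plus strand) and Gclm (chr3:122245557-122270732, plus strand) encode the catalytic and the modifier subunit of glutamate-cysteine ligase, the enzyme of the rate-limiting step of glutathione synthesis. Both rose with TNF and LPS, Gclm by far more. Gclm stood at 35.6, 59.7 and 43.2 CPM in the control, 20.9, 32.1 and 23.8 CPM with IFNg, 341, 330.5 and 224 CPM with LPS, and 526, 471 and 581 CPM with TNF. Gclc stood at 26.1, 26.3 and 20.2 CPM in the control, 20.2, 11.9 and 12.9 CPM with IFNg, 30.1, 26.1 and 35.3 CPM with LPS, and 106, 82.9 and 75.6 CPM with TNF. For Gclm all LPS and TNF libraries lay above all others. For Gclc the TNF libraries did, while LPS overlapped the control.

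Against IFNg, Gclm was 20.6-fold higher with TNF (4.36 ± 0.24, adjusted p = 8.27e-12) and 11.7-fold higher with LPS (3.55 ± 0.24, adjusted p = 7.54e-10). Gclc was 5.86-fold higher with TNF (2.55 ± 0.25, adjusted p = 1.9e-09) and 2.02-fold higher with LPS (1.02 ± 0.24, adjusted p = 0.00223). With LPS, Gclc did not differ from the control by the test (0.33 ± 0.23, adjusted p = 0.294), while Gclm was above it (2.70 ± 0.22, adjusted p = 5.32e-09). The ratio of Gclc to Gclm per length was 0.160 to 0.418 with IFNg, 0.0340 to 0.0679 with LPS and 0.0560 to 0.0867 with TNF. For each of the 2 against IFNg the exact two-sided permutation p was 0.1, the smallest possible with 3 against 3 libraries.

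The decrease with IFNg was smaller for both subunits and rested on few libraries. Gclc was 1.61-fold lower (-0.69 ± 0.24, adjusted p = 0.0347), the first IFNg library lay at the lowest control level, and the call was lost without IFNg library 2 or 3 or control library 1 or 2 (adjusted p = 0.0993 to 0.168). Gclm was 1.80-fold lower (-0.85 ± 0.22, adjusted p = 0.00671), a call lost without control library 2 (adjusted p = 0.0509). Hypoxia left both subunits below the control, Gclc at 15.8, 8.51 and 19.1 CPM (-0.74 ± 0.24, adjusted p = 0.0148) and Gclm at 28.4, 20.9 and 36.7 CPM (-0.68 ± 0.22, adjusted p = 0.0181). The Gclc call was lost without hypoxia library 2 (adjusted p = 0.122), and the Gclm call without hypoxia library 1 or 2 or control library 2 (adjusted p = 0.0549 to 0.119). With IL1b, Gclm ran from 43.5 to 57.7 CPM, above every IFNg library, and missed the threshold (0.92 ± 0.22, adjusted p = 0.121). DESeq2's Wald test called that difference (adjusted p = 0.00167), as did a fit of only the 2 groups (adjusted p = 0.012).

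Gsr (chr8:33652523-33698163, plus strand), which returns oxidized glutathione to its reduced form with NADPH, was the member that rose with hypoxia on substantial counts. It stood at 27.1, 37.8 and 49.5 CPM in the control, 23.8, 21.8 and 23.5 CPM with IFNg and 43.5, 38.3 and 48.6 CPM with hypoxia. With LPS it reached 146, 178 and 113 CPM and with TNF 342, 270.4 and 276 CPM. IFNg lay below all other groups, and hypoxia returned the gene to the control range. Hypoxia raised it 1.89-fold over IFNg (0.92 ± 0.18, adjusted p = 0.000314), LPS 6.33-fold (2.66 ± 0.18, adjusted p = 3.41e-11) and TNF 12.9-fold (3.69 ± 0.19, adjusted p = 1.5e-14). With IL1b the libraries were at 37.1, 40.9 and 37.9 CPM, also above IFNg, and missed the threshold (0.75 ± 0.18, adjusted p = 0.0807). That difference was called by DESeq2 (adjusted p = 0.0103), with no filter (adjusted p = 0.0149), in a fit of only the 2 groups (adjusted p = 0.0191) and with RPKM totals (adjusted p = 0.0466).

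Beyond Gclc, Gclm and Gsr, 23 genes of glutathione synthesis, use and breakdown were tested. Of these, 4 rose and 7 fell with TNF (2 and 8 with RPKM totals), where 22.1% of all genes rose and 22.6% fell, and the list's median log2 difference was -0.17. The counts of 4 and 7 are near those shares. With LPS 1 was higher and 2 lower (1 and 3), where 10.2% and 10.1% of all genes were, 0 were called with IL1b, and 1 higher and 6 lower with hypoxia (0 and 9), where 13.5% and 11.8% were. Gss, which completes glutathione synthesis, rose from 16.2 ± 1.26 CPM with IFNg to 72.4 ± 3.87 CPM with TNF (2.16 ± 0.22) and to 33.6 ± 8.78 CPM with LPS (1.06 ± 0.21). Mgst3, a membrane glutathione transferase, fell with TNF from 42.1 ± 6.62 to 12.7 ± 0.703 CPM (-1.73 ± 0.17). Gpx1, the abundant glutathione peroxidase, fell with LPS from 753 ± 123 to 517 ± 15.1 CPM (-0.54 ± 0.13). Gsto1 and Gstk1, both transferases, fell with hypoxia (-1.09 ± 0.16 and -1.21 ± 0.34), while Glrx, which removes glutathione from proteins, rose (0.62 ± 0.14).

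Nqo1 (chr8:107388225-107403206, minus strand), a quinone reductase widely used as a reporter of Nrf2, fell most with IFNg among the members with more than a few counts, and fell again with hypoxia. It stood at 9.43, 16.1 and 15.6 CPM in the control and 1.20, 2.12 and 3.62 CPM with IFNg. The hypoxia libraries held 0, 0 and 8 counts. With LPS it was at 11.8, 21.4 and 6.62 CPM and with TNF at 30.4, 32.0 and 22.9 CPM. The LPS libraries spanned the control range, and the TNF libraries lay above it.

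IFNg lowered Nqo1 5.96-fold (-2.58 ± 0.62, adjusted p = 0.00422), and TNF and LPS raised it 12.4-fold and 5.80-fold over IFNg (3.63 ± 0.64, adjusted p = 0.000114, and 2.54 ± 0.63, adjusted p = 0.00583). The level with TNF did not pass the test against the control (1.06 ± 0.57, adjusted p = 0.135), and a fit of only those 2 groups called it (adjusted p = 0.00528). Hypoxia lowered the gene against IFNg (-3.45 ± 0.89, adjusted p = 0.00744), a value that rests on the 8 counts of hypoxia library 3 and became -8.20 without that library and -2.81 without hypoxia library 1. Against the control, hypoxia lowered it by a log2 difference of -6.03 ± 0.85 (adjusted p = 9.47e-06), -10.78 without library 3. Slc7a11 had a higher fitted level with hypoxia than with IFNg, on 13 counts against 1. That call was lost when any 1 of several libraries was left out, so no contrast with Nqo1 is drawn.

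Txnrd1 (chr10:82833951-82897712, plus strand), Srxn1 (chr2:152105516-152111376, plus strand) and Prdx1 (chr4:116685544-116700822, plus strand) form the thioredoxin side of the response. Txnrd1 reduces thioredoxin with NADPH, Prdx1 destroys hydrogen peroxide, and Srxn1 restores peroxiredoxins that have been overoxidized. All 3 were lower with IFNg and rose with LPS and more with TNF. Per kb of coding width Prdx1 was the most abundant of the 10 in every group and reached 10597 ± 485 CPM per kb with TNF (SD, n = 3), where the next, Gclm, had 638 ± 66.9 CPM per kb.

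Prdx1 stood at 443, 398 and 399 CPM in the control, 304, 251 and 327 CPM with IFNg, 4276, 4219 and 3450.3 CPM with LPS and 6687, 6137 and 6249 CPM with TNF. No libraries of these groups overlapped. IFNg lowered it 1.41-fold (-0.49 ± 0.11, adjusted p = 0.000977), and LPS and TNF raised it 13.5-fold and 21.6-fold over IFNg (3.76 ± 0.12, adjusted p = 2.55e-18, and 4.43 ± 0.12, adjusted p = 5.97e-20). It was the member called with IL1b, at 548, 563 and 555 CPM, above both IFNg and control libraries (0.92 ± 0.11 over IFNg, adjusted p = 1.98e-05, and 0.43 ± 0.11 over the control, adjusted p = 0.00349). With hypoxia it stood at 267, 265 and 268 CPM, which overlapped IFNg (-0.14 ± 0.11, adjusted p = 0.388) and was called lower with RPKM totals (-0.38, adjusted p = 0.00587). Of its 50-base coding stretches, 44.5% occur in transcripts of 3 other annotated genes, Gm15974, Gm21399 and Gm7204, so its counts are uncertain.

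Txnrd1 stood at 111, 111 and 106 CPM in the control, 85.9, 85.3 and 72.5 CPM with IFNg and 66.8, 51.9 and 57.5 CPM with hypoxia. With LPS it was at 307, 288 and 226 CPM and with TNF at 898, 999 and 770.0 CPM. Hypoxia libraries were the lowest of all and did not overlap IFNg. TNF raised it 10.9-fold (3.45 ± 0.14, adjusted p = 7.46e-17) and LPS 3.37-fold (1.75 ± 0.13, adjusted p = 1.15e-10) over IFNg. IFNg lowered it 1.35-fold (-0.43 ± 0.13, adjusted p = 0.0147), a call lost without IFNg library 3 (adjusted p = 0.0972). Hypoxia lowered it 1.38-fold below IFNg (-0.47 ± 0.13, adjusted p = 0.0089), a call lost without hypoxia library 2 (adjusted p = 0.0655).

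Srxn1 was scarce until LPS or TNF was added, at 4.49, 4.28 and 6.78 CPM in the control and 2.35, 2.77 and 2.53 CPM with IFNg. It reached 20.3, 18.5 and 11.3 CPM with LPS and 70.1, 60.0 and 64.9 CPM with TNF. None of these 4 groups overlapped. The rise with TNF over IFNg was 25.5-fold (4.67 ± 0.32, adjusted p = 2.69e-12) and that with LPS 6.56-fold (2.71 ± 0.30, adjusted p = 1.23e-07). The decrease with IFNg was 2.03-fold (-1.02 ± 0.30, adjusted p = 0.0129), and it was lost without IFNg library 1 (adjusted p = 0.0531), without control library 3 (adjusted p = 0.0931) and in a fit of only the 2 groups (adjusted p = 0.146). Leaving out any 1 library of either group left 7 or 8 of the 9 lower calls with IFNg.

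**Figure D4:**
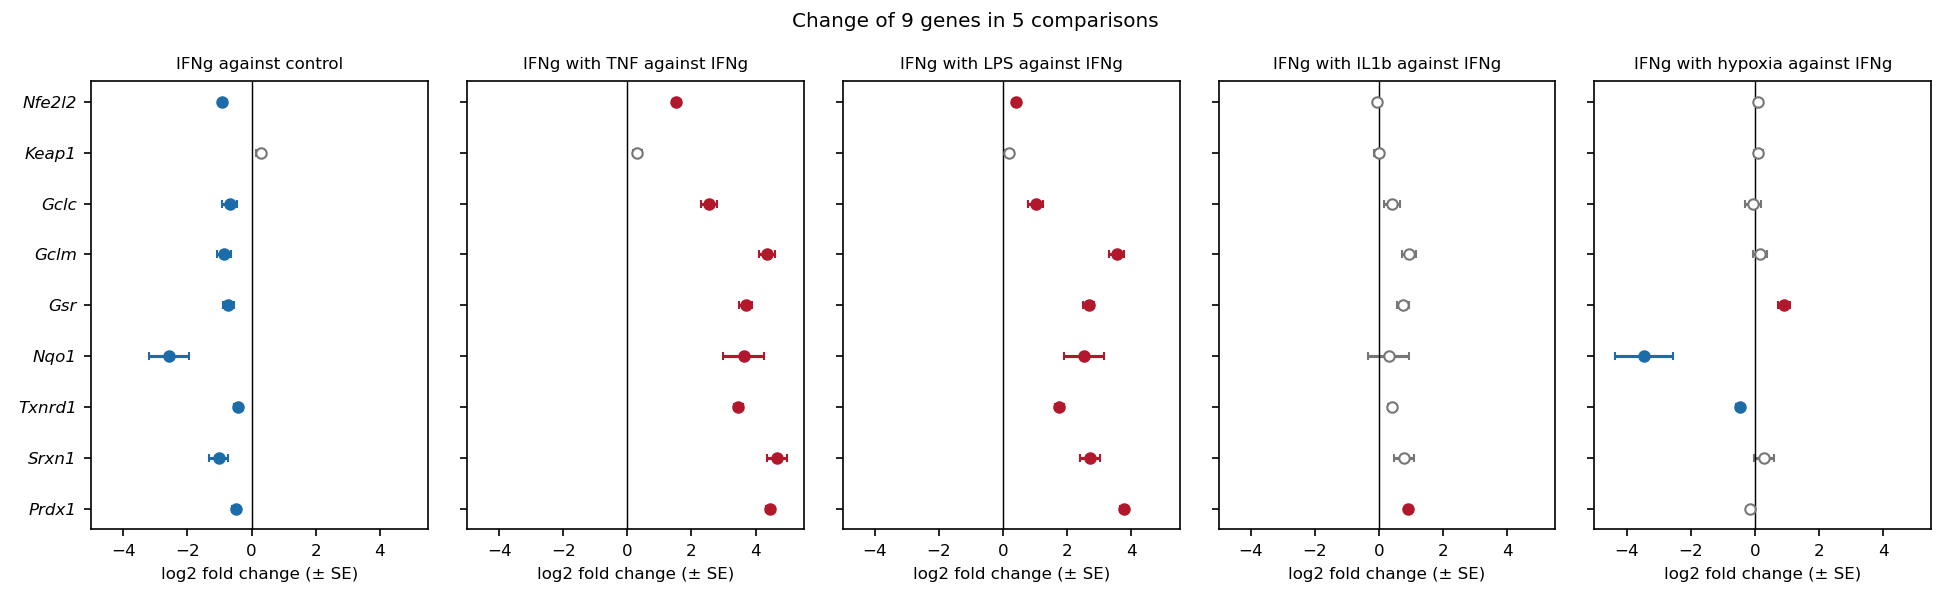
Log2 fold change with its SE for 9 of the genes in 5 comparisons of 3 against 3 libraries, filled red or blue where called higher or lower and open grey where not called. Slc7a11 is left out because its IFNg libraries held 1 count. With TNF the rise of Srxn1, 4.67, is the largest shown.

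TNF and LPS were compared directly in the same fit. With LPS, 8 of the 10 genes were lower than with TNF and 0 higher, where 13.1% of all genes were called lower and 12.2% higher, and the exceptions were Keap1 and Nqo1. The shortfall was smallest for Prdx1 (-0.68 ± 0.11, adjusted p = 2.54e-05) and Gclm (-0.82 ± 0.21, adjusted p = 0.00652) and larger for Gsr (-1.02 ± 0.17), Nfe2l2 (-1.12 ± 0.10), Gclc (-1.53 ± 0.23), Txnrd1 (-1.70 ± 0.13), Srxn1 (-1.96 ± 0.28) and Slc7a11 (-3.29 ± 0.27). In fold terms Prdx1 was 1.60-fold lower with LPS than with TNF and Slc7a11 9.77-fold lower. Nqo1 was 2.14-fold lower with LPS in libraries that did not overlap, and missed the threshold (-1.10 ± 0.57, adjusted p = 0.181).

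With IL1b, 8 of the 10 genes had a higher fitted level than with IFNg, 5 had an unadjusted p under 0.05, and 1 was called. These 8 include Slc7a11, at 2 counts against 1, and Nqo1. Both changed direction when single libraries were left out, with ranges of -1.80 to 2.67 and -0.31 to 0.77. The median log2 difference of all tested genes was -0.00057. Over all genes, 596 had an unadjusted p under 0.05 and 35 were called. Besides Prdx1, Gclm and Gsr, the libraries of Txnrd1 (97.2, 107 and 120 CPM) and of Srxn1 (3.51, 3.45 and 6.22 CPM) lay above all IFNg libraries, with log2 differences of 0.41 ± 0.13 (adjusted p = 0.36) and 0.77 ± 0.31 (adjusted p = 0.721). Gclc (19.1 to 20.7 CPM) and Nqo1 (0.767 to 4.73 CPM) overlapped IFNg. Nfe2l2 and Keap1 had log2 differences of -0.060 ± 0.10 and -0.0025 ± 0.14.

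Ordering the 6 groups by level gave TNF as the highest for all 10 genes and LPS as the second for 8, the exceptions being Nfe2l2 and Nqo1, for which the control came second. Of the 50 steps between neighbouring groups in these orders, 23 differed by the test. The step from LPS to TNF was among them for 7 of those 8 genes, all but Keap1. At the low end, IFNg, IL1b and hypoxia were mostly not separated. For Nfe2l2, Keap1, Slc7a11, Gclc and Srxn1 no neighbours below LPS differed, and for Keap1 and Gclc the step up to LPS did not differ either. Prdx1 had the most separated order, with hypoxia and IFNg together, then the control, IL1b, LPS and TNF, each above the one before.

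Some members had closely similar profiles over the 6 group means, measured as the root mean square difference of centred log2(CPM + 1). The closest pairs were Gclm with Prdx1 at 0.214 and Txnrd1 with Srxn1 at 0.273. Outside the 10, the genes nearest to Nfe2l2 were Wdtc1 (0.0863), Arid3a (0.0864) and Hspa1b (0.0932), of which Hspa1b stayed at or below 1.66 CPM. Nearest to Slc7a11 were Clec4e (0.496), Il1b (0.581) and Procr (0.609), and to Srxn1 Ccr7 (0.145), Flrt3 (0.194) and Spic (0.246). Nearest to Nqo1 were Ptgr1 (0.273), Fth1 (0.479) and Fam20c (0.513). These are descriptions over 6 groups with the offset of 1 CPM damping scarce genes.

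Of other reported Nrf2 targets, 26 were tested, and most of them rose with TNF and with LPS. With IFNg 12 were lower and 3 higher (15 and 2 with RPKM totals), where 10% and 13.5% of all genes were. With TNF 22 were higher and 1 lower (21 and 2), where 22.1% and 22.6% of all genes were. With LPS 21 were higher and 1 lower (18 and 1), where 10.2% and 10.1% were. With IL1b 3 were higher and 0 lower, where 0.268% and 0.0346% were. With hypoxia 2 were higher and 5 lower (2 and 12), where 13.5% and 11.8% were. Their median log2 difference was -0.61 with IFNg, 1.91 with TNF and 1.52 with LPS. Hmox1, which degrades heme, went from 160 ± 6.93 CPM with IFNg to 5970 ± 446 CPM with TNF (5.22 ± 0.17), 2339 ± 616 CPM with LPS (3.87 ± 0.16), 793 ± 89.7 CPM with hypoxia (2.31 ± 0.15) and 285 ± 32.0 CPM with IL1b (0.83 ± 0.14), all called. Fth1, the ferritin heavy chain that stores iron, fell from 6193 ± 1047 CPM in the control to 2068 ± 256 CPM with IFNg (-1.58 ± 0.16). From there it rose to 23552 ± 5280 CPM with TNF (3.51 ± 0.17), 12265 ± 1006 CPM with LPS (2.57 ± 0.16) and 3394 ± 730 CPM with IL1b (0.71 ± 0.15), and it fell to 1486 ± 97.7 CPM with hypoxia (-0.48 ± 0.15), all called. Gsta3, a glutathione transferase, had 0 counts with IFNg and 293 counts with TNF, at least 108-fold higher against 3 counts over the group.

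Ephx1, an epoxide hydrolase and listed target, fell in the groups in which the others rose, from 47.7 ± 6.66 CPM with IFNg to 2.48 ± 0.680 CPM with TNF (-4.25 ± 0.27) and 6.26 ± 2.39 CPM with LPS (-2.92 ± 0.25). Against the control, IFNg lowered Gstm1, a glutathione transferase, from 79.7 ± 10.2 to 19.97 ± 1.43 CPM (-1.998 ± 0.17) and raised Txn1, thioredoxin itself, from 164 ± 10.9 to 472 ± 75.5 CPM (1.53 ± 0.13) and the scavenger receptor Cd36 (1.02 ± 0.11). With hypoxia the export pump Abcc1 rose with Hmox1 (0.79 ± 0.14), while Gstm1 (-0.73 ± 0.17) and the biliverdin reductase Blvrb (-0.58 ± 0.18) fell.

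Among the partners and regulators of Nrf2, 11 tested, 1 was higher and 3 lower with IFNg, where 13.5% and 10% of all genes were. With TNF 6 rose (5, with 1 lower, with RPKM totals), where 22.1% of all genes rose and 22.6% fell. With LPS 4 rose (3 with RPKM totals), where 10.2% of all genes did. With hypoxia 3 rose (2 with RPKM totals), where 13.5% did, and 0 were called with IL1b. Sqstm1, the autophagy receptor p62 that binds Keap1, went from 725 ± 63.8 CPM in the control to 418 ± 34.6 CPM with IFNg, 1311 ± 163 CPM with LPS and 2970 ± 131 CPM with TNF. Mafg, a small Maf partner, went from 10.2 ± 4.20 to 4.69 ± 0.480 CPM with IFNg, 14.8 ± 7.10 CPM with LPS and 32.2 ± 6.31 CPM with TNF. The differences of Mafg between IFNg and the control and of LPS and TNF from IFNg were called, as was TNF against the control, while LPS against the control was not (0.53 ± 0.33, adjusted p = 0.226). Bach1, the repressor that competes for antioxidant response elements, rose with hypoxia from 233 ± 16.1 to 461 ± 20.8 CPM (0.99 ± 0.13, adjusted p = 2.4e-06) and stood at 201 ± 21.3 CPM with TNF.

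Thioredoxins, peroxiredoxins and methionine sulfoxide reductases, 19 tested, had 9 higher and 8 lower with TNF, where 22.1% and 22.6% of all genes were, and a median log2 difference of 0.20. They had 6 higher and 3 lower with LPS, where 10.2% and 10.1% of all genes were, and 0 and 0 with IL1b. With IFNg 3 were higher and 3 lower, where 13.5% and 10% of all genes were. With hypoxia 4 were higher and 4 lower (3 and 6 with RPKM totals), where 13.5% and 11.8% were. Prdx5, another peroxiredoxin, rose from 356 ± 38.2 CPM with IFNg to 3178 ± 471 CPM with TNF (3.16 ± 0.16). Sesn1, a sestrin, fell from 82.2 ± 7.87 to 6.72 ± 2.63 CPM with TNF (-3.63 ± 0.20), and Txnip, which binds and inhibits thioredoxin, fell with TNF (-1.32 ± 0.12) and LPS (-0.73 ± 0.12) and rose with hypoxia (0.73 ± 0.12).

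ATF4, the transcription factor of the amino acid response, also drives Slc7a11. Of ATF4 and its targets, 12 tested, 6 were higher and 0 lower with IFNg, where 13.5% and 10% of all genes were. With TNF 7 and 0 were, where 22.1% and 22.6% of all genes were. With LPS 4 and 0 were, where 10.2% and 10.1% were, and with IL1b 2 and 0, where 0.268% and 0.0346% were. With hypoxia 6 were higher and 3 lower, where 13.5% and 11.8% were. Atf4 had means of 144 ± 6.83 CPM in the control, 184 ± 16.6 CPM with IFNg, 281 ± 17.3 CPM with IL1b, 388 ± 54.2 CPM with LPS and 538 ± 64.9 CPM with TNF. Asns, asparagine synthetase, rose with LPS (1.47 ± 0.26) and IL1b (1.17 ± 0.26) and fell with hypoxia from 23.0 ± 3.69 to 4.55 ± 2.42 CPM (-2.33 ± 0.28). Of 10 ferroptosis genes tested, 8 rose and 1 fell with TNF (5 and 1 with RPKM totals), and 6 rose and 0 fell with LPS. Of all genes, 22.1% rose and 22.6% fell with TNF, and 10.2% rose and 10.1% fell with LPS. The iron exporter Slc40a1 fell from 55.7 ± 8.43 to 10.1 ± 2.003 CPM with IFNg (-2.46 ± 0.22) and rose to 94.6 ± 19.2 CPM with LPS (3.23 ± 0.23) and 80.5 ± 17.7 CPM with TNF (2.99 ± 0.23).

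**Figure D5:**
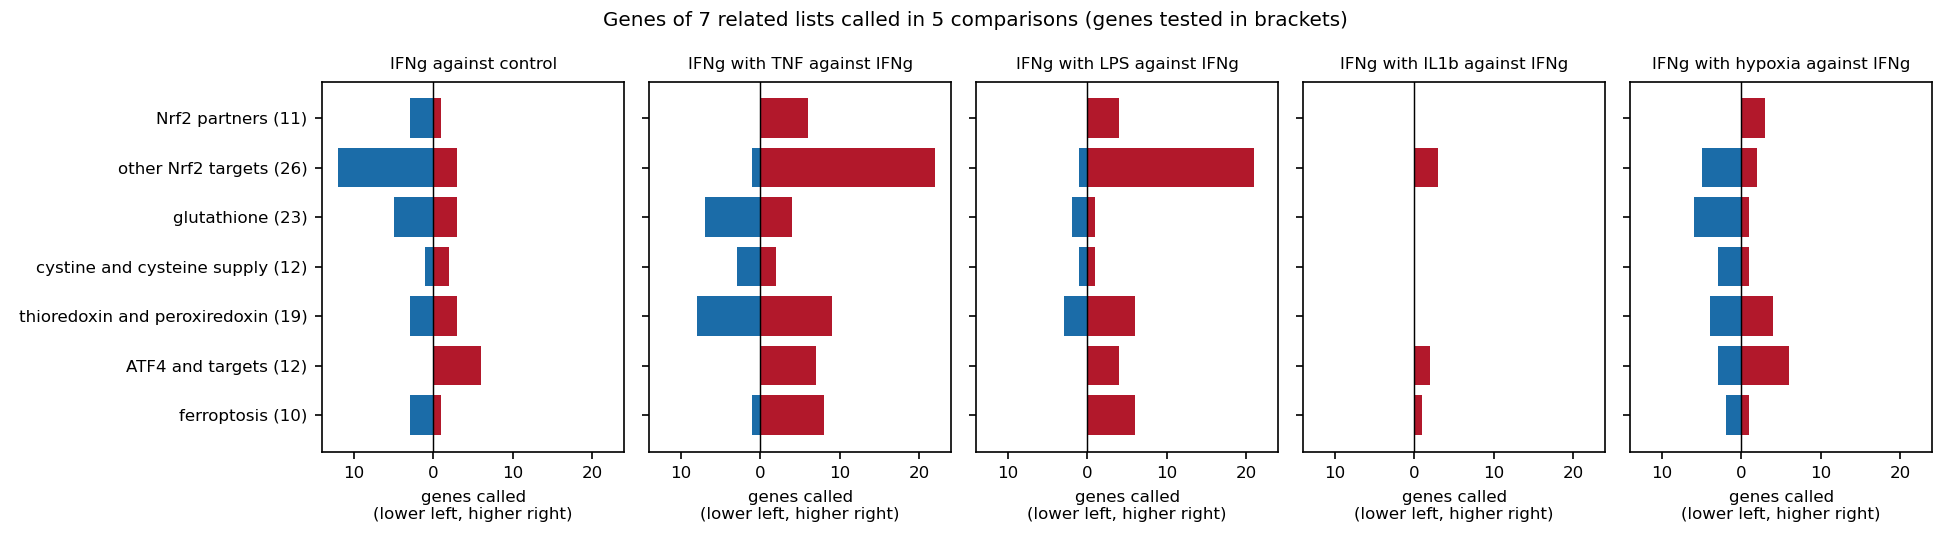
Number of genes called higher (red, to the right) and lower (blue, to the left) in 7 lists of related genes for 5 comparisons, with the number tested in brackets. Other Nrf2 targets go from 12 lower with IFNg to 22 higher with TNF and 21 with LPS. The glutathione list has 7 lower and 4 higher of 23 with TNF, which is near the shares over all tested genes. Of all tested genes, 10% were lower with IFNg, 22.1% higher and 22.6% lower with TNF, and 10.2% higher with LPS.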

How the data were processed

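RNA from 18 libraries of mouse bone-marrow-derived macrophages was sequenced, per the labels' protocols, as single-end reads of 50 bases from a stranded poly(A) kit. Reads were aligned with GSNAP to mm10, per the submitters' processing notes. Tool versions and the counter's annotation and strand setting were not given in the sources used here, and reads may therefore be shared between genes that overlap or are near-identical. Each file deposited by the authors lists 22598 genes with a read count, a width and an RPKM value. The other column, the width deposited by the authors, is a coding length for most genes, since 86.7% of widths were multiples of 3, so reads in untranslated regions are largely left out. RPKM values deposited by the authors were used only for the library totals they imply. Of the gene IDs, 22534 matched a symbol in GENCODE M21 and 64 did not. Promoter windows are from RefSeq.

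Counts were tested with edgeR 4.0.16 (R 4.3.3): TMM scaling, filterByExpr, glmQLFit with robust estimation and glmQLFTest in 1 model of group means over all 18 libraries, with p-values adjusted by the Benjamini-Hochberg method over 11563 genes and a threshold of 0.05. TMM factors ran from 0.805 to 1.186. SEs were computed from the log2 fold change and the test's F. CPM used the count in tested genes times the TMM factor. The floor was 3 counts, and counting intervals (95%) cover counting error only. Replicates of a group differed by more than sampling noise. The groups and replicate numbers came from the sample titles. The fit was tested on simulated data before use.

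The 10 genes, the 7 lists of related genes and the marker lists were chosen with earlier results of these data known. All 10 members are named in every comparison. Of each list, at most the 2 highest and 2 lowest called genes with a mean of 5 CPM or more in a group compared could be named. The 3 genes nearest in profile were taken for Nfe2l2, Slc7a11, Nqo1 and Srxn1. The result of 1 marker list is not reported here. Genes used to check the labels were chosen after their values were seen. Alternatives were DESeq2 size factors, DESeq2 1.42.0's Wald test, no filter on low counts, scaling to RPKM totals, only the groups compared, the replicate number as a block, and leaving out each library.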

Additional observations from a re-analysis of the deposited data

How the results depend on the processing

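For the members, counts of calls for TNF and LPS against IFNg (9 higher, 0 lower in each) were the same under every alternative run. The DESeq2 Wald test and a fit of only the groups compared each called 3 members higher with IL1b over IFNg, and no filter and RPKM totals each called 2, where the main fit called 1. For hypoxia over IFNg, no filter gave 1 member higher in place of 2, the Slc7a11 call being lost (adjusted p = 0.0724). A fit of only the groups compared also gave 1, since Slc7a11 was not among the genes tested there. Leaving out single libraries gave 1 to 2 higher and 1 to 2 lower. For hypoxia over the control, RPKM totals gave 0 higher in place of 1 and 7 lower in place of 6, Srxn1 being added (adjusted p = 0.00352), and leaving out single libraries gave 0 to 1 higher and 4 to 6 lower, with 4 lower without hypoxia library 2.

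Scaling to RPKM totals moved the median of all genes from -0.015 to -0.17 for IFNg against the control, from -0.049 to -0.37 for TNF, from -0.011 to -0.26 for hypoxia, both against IFNg, and from 0.017 to 0.26 for LPS against TNF. Directions that reversed under it belonged to differences that were not called: Keap1 with TNF (-0.012), IL1b (0.0034) and hypoxia (-0.14) over IFNg and with LPS over TNF (0.11), Nfe2l2 (-0.13) and Gclm (-0.081) with hypoxia over IFNg, and Gsr with hypoxia over the control (-0.20). Leaving out single libraries turned uncalled differences. With IL1b over IFNg the ranges were -0.13 to 0.0081 for Nfe2l2, -0.14 to 0.12 for Keap1, -1.80 to 2.67 for Slc7a11 and -0.31 to 0.77 for Nqo1. With hypoxia over IFNg they were -0.30 to 0.23 for Gclc and -0.049 to 0.36 for Gclm, and over the control -1.06 to 0.095 for Slc7a11 and -0.0028 to 0.43 for Gsr. With LPS over the control Nqo1 ran from -0.56 to 0.28. The cause of these shifts was not tested.

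The sample titles carry the same replicate numbers in all 6 groups. These numbers were not taken to pair the samples, since in 0 of 15 pairs of groups were all same-numbered correlations of deviations over 0.1 (range -0.095 to 0.23). That rule cannot exclude a shared source of same-numbered libraries. As a hint from the data, 9 of 18 libraries had their closest deviation in a library of the same number, where an even draw over the other groups gives 6. With the replicate block all 90 results on single members kept their direction and side of the threshold, and 9 members were again called lower with IFNg. Precision is limited by depth for Slc7a11 outside the LPS and TNF groups and for Nqo1 with hypoxia.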
